A study of Mus musculus with 16 samples.

Results

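The genes described here are 34 mouse genes of fatty acid oxidation and of the PPARA response, chosen by name and found by their Ensembl identifiers among the 55359 genes of the deposited read count table. They comprise the receptor gene Ppara itself, 5 genes of the carnitine shuttle, 8 of mitochondrial beta-oxidation, 4 auxiliary enzymes for unsaturated chains, 3 of electron transfer to ubiquinone, 5 of peroxisomal beta-oxidation, 2 of omega-oxidation, the ketone body enzyme Bdh1 and 5 other PPARA targets. All 34 were present in the table, and 33 passed the filter on low counts in each of the 5 comparisons. Only Cyp4a14 did not pass, with 0, 3, 3 and 2 counts in all libraries of the mutant ileum, control ileum, mutant duodenum and control duodenum.

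Total RNA was sequenced from the ileum and the duodenum of adult male C57BL/6N mice on a high fat diet. Mutant mice were Neurog3f/f; villin-CreERT2 (4 mice, M136, M167, M168 and M177), and control mice were Neurog3f/f without the recombinase (4 mice, C133, C134, C151 and C154), so that both genotypes carry the floxed alleles. The tissues were taken 5 weeks after tamoxifen. CreERT2 is a recombinase that acts in the presence of tamoxifen, and the villin promoter directs it to the epithelium of the gut. The Neurog3 protein is needed in the crypt for hormone-producing cells to form, and the labels name the gut segment but not the layers of the wall that the samples hold. Each mouse number appears on an ileum and on a duodenum library, giving 4 libraries for each of the 4 groups.

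PPARA is a nuclear receptor that is activated by fatty acids and, paired with RXR, switches on genes for the uptake and burning of fat. Long-chain acyl-CoA enters mitochondria as acylcarnitine and is shortened in a repeated cycle of dehydrogenation, hydration, a further dehydrogenation and thiolysis, while very long chains are first shortened in peroxisomes and the CYP4A enzymes hydroxylate the far end of the chain. Enterocytes, the absorptive cells of the villus, take up dietary fat and both export and oxidise it, and PPARA target genes in the small intestine are known to respond to fat in the diet.

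Depth was between 40.9 and 67.2 M counts a library. Neurog3 had 0.0166, 0, 0 and 0 CPM in the 4 mutant ileum libraries against 1.03, 1.03, 0.938 and 0.558 CPM in the control ileum, and 0, 0.0234, 0 and 0 CPM in the mutant duodenum against 2.56, 2.81, 2.59 and 2.42 CPM in the control duodenum. CPM here is the count divided by library size in M counts, with sizes corrected by TMM (trimmed mean of M values). Markers of the ileum (Fabp6, Slc10a2, Fgf15 and Osr2) summed to 753 to 2283 CPM in mutant ileum, 1397 to 2145 CPM in control ileum, 2.19 to 5.49 CPM in mutant duodenum and 2.205 to 6.03 CPM in control duodenum. Transcripts of the exocrine pancreas made up 0.776, 15.98, 3.71 and 15.6% of the counts of duodenal M136, M167, M168 and M177 (mutant), against 2.72, 0.00683, 1.81 and 0.00704% of duodenal C133, C134, C151 and C154 (control), and at most 0.384% in any ileum library. Duodenal M167 and M177 therefore stand apart from the other mutants, and C134 and C154 from the other controls, and results in the duodenum are given with and without them. Vil1, an epithelial structural gene, had 2867, 2066, 2890.2 and 1937 CPM in the mutant duodenum and 3452, 3328, 3150.4 and 3226 CPM in the control duodenum, so every mutant lay below every control. Of 13 epithelial marker genes it was the only 1 with every mutant duodenum below every control, and 4 of the 13 had fold changes above 0. In RNA from whole tissue, fewer epithelial cells and less RNA per cell cannot be told apart.

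PPARA with RXR is known to bind a direct repeat of a 6-base unit, its copies spaced by 1 base. The letters AGGTCANAGGTCA were searched on both strands, with at most 2 mismatches in the 12 fixed bases, in RefSeq promoter windows (GRCm38.p6, 250 bases before to 50 after each start) of the 26 members that had one, 27 windows in all. Such a match was held by 2 of the 27 windows (7.41%), against 3.86% of the 32851 windows of all genes, and the single unit AGGTCA by 3 (11.1%), against 16.3% of all. It is a match of letters, and binding was not measured. Both matches are shown because they are the members' closest to the repeat, with the matched bases in capitals. The first lies 77 bases before the start of Etfa, in which the repeat runs against the gene (chr9:55512300-55512329, minus strand), and the other 6 bases after the start of Slc25a20 (chr9:108662133-108662162, plus strand).
Etfa: cgcacacccTTACCTTTGCCCTactcccaa
Slc25a20: cctgaatgtAGGTGAAAGGTCGgcggagcc
Hadha and Hadhb, the 2 subunits of the mitochondrial trifunctional protein, lie head to head on chromosome 5 with starts 273 bases apart (30154980 and 30155253). The 250 bases before the start of Hadha are shown because the pair had nearly equal fold changes in every comparison below; they hold no match of 2 or fewer mismatches (chr5:30154981-30155230, minus strand).
Hadha: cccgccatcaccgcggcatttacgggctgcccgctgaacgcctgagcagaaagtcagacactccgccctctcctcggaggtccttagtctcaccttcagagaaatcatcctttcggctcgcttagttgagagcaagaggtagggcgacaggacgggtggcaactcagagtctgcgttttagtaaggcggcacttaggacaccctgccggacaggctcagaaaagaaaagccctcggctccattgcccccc

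Per kilobase of annotated exon, members ranged over more than an order of magnitude. In the control duodenum the highest were the mitochondrial thiolase Acaa2 at 322 CPM per kilobase, the hydroxyacyl-CoA dehydrogenase Hadh at 239, the long-chain dehydrogenase Acadl at 161 and the peroxisomal bifunctional enzyme Ehhadh at 129.6. The mutant duodenum had the same 4 leading members, at 245, 165, 114 and 102 CPM per kilobase. In the mutant ileum the order was led by Acadl at 119 CPM per kilobase, Acaa2 at 95.9 and Hadh at 63.6. In the control ileum it was led by the pantetheinase Vnn1 at 90.6, Acaa2 at 88.9 and Hadh at 87.8 CPM per kilobase, values that lie within each other's spread over mice. Among members that passed the filter, Cyp4a10 was lowest in the mutant ileum at 0.779 CPM per kilobase and the acyl-CoA thioesterase Acot1 lowest in the control ileum at 1.85.

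Within a group, most members took their lowest level in the same mouse. M167 was the lowest mutant ileum library for 29 of the 33 members and C151 the lowest control ileum library for 29, while M177 was the lowest mutant duodenum library for 26 and C154 the lowest control duodenum library for 25. The sum of 13 genes of epithelium and enterocytes, none of them a member, was lowest in the same 4 libraries. Apoa1, Apoa4, Fabp2, Sis and Lct are among these genes, so the sum is not a measure of epithelial content alone. It was 13065 CPM in ileal M167 against a highest value of 26261 CPM among mutant ilea, and 39515 CPM in duodenal M177 against a highest of 72276 CPM among mutant duodena. Its part in the members' levels was not tested.

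**Figure D1:**
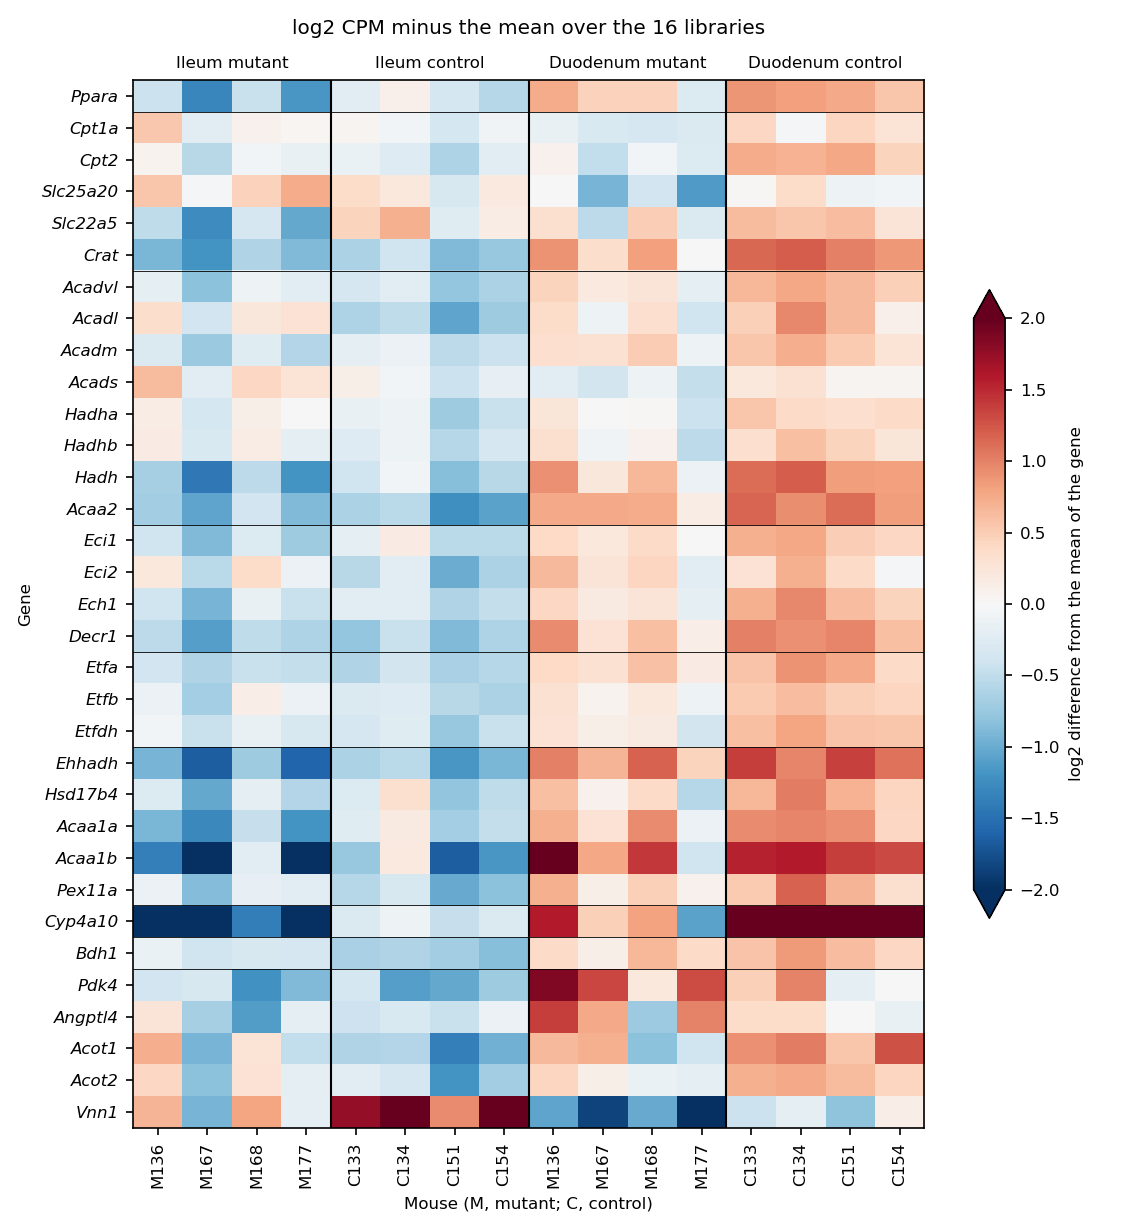
Each row is 1 of the 33 members that passed the filter and each column 1 of the 16 libraries, in the order mutant ileum, control ileum, mutant duodenum and control duodenum. Colour gives log2 CPM minus the mean of the gene over all libraries, clipped at 2 in either direction. Most rows are red in the control duodenum and blue in the ileum, and ileal M167 and C151 are the bluest columns of their groups.

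The first question of the design is what the mutation changed in each tissue. In the mutant ileum, 3 members rose (Acadl, Bdh1 and Eci2) and 3 fell (Slc22a5, Cyp4a10 and Vnn1), while 27 did not pass the test (edgeR quasi-likelihood F test, Benjamini-Hochberg adjusted p under 0.05 over 18310 genes). Of all genes tested, 19.0% were called higher and 14.6% lower, so 3 of 33 in each direction was not above the background. The members' median log2 fold change, mutant over control, was 0.14 against -0.03 for all genes, with 19 members above 0 (47.6% of all genes) and 14 below. Groups did not overlap for 2 members that were higher and 3 that were lower, against 17.0 and 15.5% of all genes.

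Ppara, the receptor gene, had 45.6, 24.9, 45.2 and 27.6 CPM in mutant ilea (M136, M167, M168 and M177, the order used throughout) and 52.4, 66.3, 48.2 and 41.4 CPM in control ilea (C133, C134, C151 and C154). Mutants tended to the lower side but overlapped the controls, and the log2 fold change of -0.52 (SE 0.22, adjusted p = 0.104) did not pass.

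In the carnitine shuttle, the plasma membrane carnitine transporter Slc22a5 had 45.8, 27.3, 51.8 and 32.1 CPM in mutant ilea and 88.9, 106, 55.1 and 71.9 CPM in control ilea. Every mutant lay below every control, and the log2 fold change was -1.014 (SE 0.25, adjusted p = 0.0139), a fall by 2.02-fold that kept its call in each of the 8 fits without 1 mouse. It lost the call without the low count filter (0.0581), without C134 and C154 (0.0746) and without M167 and M177 (0.0801, all adjusted p). Of the 50-base stretches of Slc22a5 transcripts, 26.3% also occur in other genes, chiefly its relative Slc22a21, and how the counting treated them is not given. The other 4 shuttle genes did not pass, with log2 fold changes from -0.21 for Crat to 0.34 for Slc25a20.

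Of the 8 genes of mitochondrial beta-oxidation, Acadl rose and the other 7 did not pass, 6 of the 8 having fold changes above 0. Acadl, the long-chain acyl-CoA dehydrogenase, had 274, 164, 252 and 262 CPM in mutant ilea and 141, 151.2, 104 and 131 CPM in control ilea. The groups did not overlap, and its level was 1.84-fold higher in mutants, a log2 fold change of 0.88 (SE 0.16, adjusted p = 0.00234) that kept its call in all 18 alternatives. The short-chain dehydrogenase Acads had 112, 61.8, 96.3 and 88.1 CPM in mutant ilea and 78.3, 69.5, 53.6 and 64.9 CPM in control ilea. Ileal M167 was the one mutant within the control range, and the log2 fold change of 0.45 (SE 0.17, adjusted p = 0.0611) did not pass.

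The trifunctional protein subunit Hadha had 588, 413, 573 and 532 CPM in mutant ilea and 479, 492, 324 and 389 CPM in control ilea, with a log2 fold change of 0.35 (SE 0.15, adjusted p = 0.0987). Its partner Hadhb had 38.4, 27.7, 37.9 and 30.1 CPM in mutant ilea and 28.8, 32.0, 23.2 and 27.3 CPM in control ilea, with a log2 fold change of 0.29 (SE 0.13, adjusted p = 0.112). Ileal M167 lay inside the control range for both subunits, as did M177 for Hadhb, and the other mutants were above all controls. Neither gene passed. Of the 50-base stretches of Hadhb, 19.7% occur in other genes, 18.1% in Gm13910. Per kilobase of exon, Hadhb had 5.08 CPM in mutant ilea and 4.22 CPM in control ilea, against 60.3 and 48.2 CPM for Hadha. The cause of this gap between the subunits was not tested.

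Eci2, an isomerase that moves double bonds of unsaturated chains, had 69.4, 41.3, 77.2 and 55.2 CPM in mutant ilea and 40.9, 51.4, 30.2 and 38.6 CPM in control ilea. The groups overlapped through M167, and the log2 fold change was 0.62 (SE 0.21, adjusted p = 0.0452). That call was lost in the fits without C133, C151, C154, M136, M168 or M177, with an adjusted p of up to 0.107, and also with DESeq2 size factors in edgeR (0.0522) and without the low count filter (0.111). The other 3 auxiliary genes and the 3 electron transfer genes did not pass, at -0.28 for Eci1 to 0.28 for Etfb on the log2 scale.

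Among the peroxisomal genes none passed, and 4 of 5 had fold changes below 0. The thiolase Acaa1a had 42.3, 32.5, 57.5 and 34.8 CPM in mutant ilea and 67.2, 90.3, 49.5 and 56.9 CPM in control ilea, a log2 fold change of -0.64 (SE 0.22, adjusted p = 0.0532) with M168 inside the control range. Its near-identical copy Acaa1b had 7.82, 4.34, 17.4 and 3.62 CPM in mutant ilea and 12.0, 23.1, 6.47 and 8.998 CPM in control ilea, at -0.59 (SE 0.61, adjusted p = 0.498). Of the 50-base stretches of Acaa1b, 30.5% occur in Acaa1a as well, so the split of counts between the copies is uncertain.

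Cyp4a10, an omega-hydroxylase of fatty acids, had 1.84, 0.630, 3.70 and 0.395 CPM in mutant ilea and 7.91, 8.99, 7.03 and 7.92 CPM in control ilea. The mutants varied widely, from 0.395 to 3.70 CPM, and all lay below the narrow control range. The log2 fold change was -2.26 (SE 0.63, adjusted p = 0.0274), a 4.79-fold fall. The call was kept without M168 and without M177, and lost without any 1 of the other 6 mice, with an adjusted p of up to 0.0691. Of its 50-base stretches, 29.8% occur in other genes, 24.5% in Cyp4a32.

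Bdh1, which interconverts the ketone bodies, had 63.7, 53.4, 56.2 and 55.2 CPM in mutant ilea and 44.6, 46.3, 43.2 and 38.6 CPM in control ilea. Groups did not overlap, and the log2 fold change of 0.43 (SE 0.087, adjusted p = 0.00365) kept its call in all 18 alternatives. Vnn1, a pantetheinase that releases cysteamine and a PPARA target, had 91.4, 30.2, 98.9 and 50.01 CPM in mutant ilea and 195, 340.4, 110.0 and 231 CPM in control ilea. All 4 mutants lay below all controls, and the log2 fold change was -1.68 (SE 0.48, adjusted p = 0.0335), lost in the fits without C133, C134, C154, M136 or M177 (adjusted p of up to 0.0833). The cytosolic thioesterase Acot1 had 21.6, 6.82, 15.7 and 9.29 CPM in mutant ilea and 8.597, 8.68, 5.06 and 6.70 CPM in control ilea, a log2 fold change of 0.90 (SE 0.35, adjusted p = 0.0803). Its mitochondrial relative Acot2 had 18.5, 7.84, 17.0 and 12.3 CPM in mutant ilea and 11.8, 11.04, 6.08 and 8.63 CPM in control ilea, at 0.58 (SE 0.28, adjusted p = 0.142). For both thioesterases the mutants other than M167 were above all controls and M167 was within their range. Of the counts a part is uncertain, since 13.6% of the 50-base stretches of Acot1 and 24.5% of those of Acot2 occur in the other gene.

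Dropping M167 alone brought the number of members higher in the mutant ileum to 11, and dropping M167 and M177 also gave 11 higher and 1 lower. Without C134 and C154 the count was 3 higher and 0 lower. Without the low count filter Cyp4a10 (adjusted p = 0.0802) and Vnn1 (adjusted p = 0.0798) also missed the threshold, leaving 2 members higher and 0 lower. Ileal C134 and C154 stood apart in genes of organised lymphoid tissue as well. The 6 genes of that list, Cr2 and Cxcl13 among them, summed to 2.33, 4.80, 4.25 and 2.997 CPM in mutant ilea and 5.22, 113, 7.13 and 129 CPM in control ilea. All 6 had fold changes below 0 in the mutant ileum and 4 passed, and their part in the members' results was not tested beyond the fit without both mice. Scaling the libraries to the counts of Vil1, Epcam, Cdh1 and Cdx2, chosen after seeing the data, gave 10 higher and 4 lower. Shares of all genes called in these refits are not given here, so the counts are not read as particular to the members.

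In the mutant duodenum 6 members fell and none rose. They were Cpt1a and Cpt2 of the carnitine shuttle, the dehydrogenase Acads, the electron transfer gene Etfdh, Cyp4a10 and Acot2. Of all 17611 genes tested, 5.11% were called lower and 3.44% higher. Of the 33 members, 31 had a fold change below 0, against 47.4% of all genes, and their median log2 fold change was -0.42 against 0.02 for all genes. Mutants lay wholly below controls for 13 members and wholly above for 0, against 11.4 and 7.38% of all genes. At an unadjusted p under 0.05 the count was 20 of the 33 members, against 29.2% of all genes. The 13 epithelial genes summed to 56044 ± 16402 CPM in mutant duodena and 66815 ± 6749 CPM in control duodena (SD, n = 4), and 9 of the 13 had fold changes below 0, with a median of -0.31 and none passing. None of the 13 had an unadjusted p under 0.05 either. Their part in the members' fold changes was not tested, and the scaling to 4 epithelial genes given below does not test it.

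Ppara had 103, 84.8, 84.4 and 50.8 CPM in mutant duodena and 113, 108, 104 and 90.6 CPM in control duodena. M177 was far below the rest and M136 reached into the control range, and the log2 fold change of -0.34 (SE 0.18, adjusted p = 0.245) did not pass.

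In the carnitine shuttle all 5 genes had fold changes below 0 and 2 fell. Cpt1a, the outer membrane transferase that sets the rate of mitochondrial entry, had 327, 294, 287 and 298 CPM in mutant duodena and 486, 352, 491 and 439 CPM in control duodena, without overlap. Its log2 fold change was -0.53 (SE 0.14, adjusted p = 0.0396), and the call was kept without C134 and without M136 but in none of the other 6 fits without 1 mouse (adjusted p of up to 0.115). Cpt2, the inner membrane transferase, had 172, 115, 155 and 133.6 CPM in mutant duodena and 271, 263, 275 and 219 CPM in control duodena. The groups were clearly apart, and Cpt2 was 1.75-fold lower, at -0.81 (SE 0.14, adjusted p = 0.00811). This call held in 17 of 18 alternatives, the exception being the fit without C134 and C154 (adjusted p = 0.0511). The remaining 3 shuttle genes had log2 fold changes from -0.58 for the translocase Slc25a20 to -0.44 for Slc22a5.

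All 8 mitochondrial beta-oxidation genes had fold changes below 0, and Acads fell. Acads had 62.2, 56.0, 68.0 and 52.1 CPM in mutant duodena and 84.3, 89.2, 75.7 and 75.2 CPM in control duodena, a log2 fold change of -0.42 (SE 0.11, adjusted p = 0.0364). The very long chain dehydrogenase Acadvl had 259, 218, 227 and 167.5 CPM in mutant duodena and 302, 326, 298 and 266 CPM in control duodena, at -0.42 (SE 0.14, adjusted p = 0.0769). Hadha had 623, 526, 538 and 392 CPM in mutant duodena and 778, 689.7, 672 and 691 CPM in control duodena, at -0.42 (SE 0.16, adjusted p = 0.116). In these 3 genes the groups did not overlap, though only Acads passed, and it lost the call without any 1 mouse other than M136 and M168 (adjusted p of up to 0.105). Hadhb, at -0.40 (adjusted p = 0.129), changed by nearly the same amount as Hadha. On the opposite strand, 42.9% of the exon length of Acadvl overlaps Dvl2, and the strand setting of the counting is not given.

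Among the auxiliary enzymes, Ech1, a dienoyl-CoA isomerase, had 193, 164, 174 and 128 CPM in mutant duodena and 238, 282, 222 and 198 CPM in control duodena, at -0.48 (SE 0.15, adjusted p = 0.0656). Eci1, the isomerase of mitochondria, had 43.2, 37.9, 43.1 and 32.7 CPM in mutant duodena and 53.6, 56.4, 46.4 and 43.9 CPM in control duodena, at -0.32 (SE 0.12, adjusted p = 0.102). Neither passed, although each mutant lay below each control in both. Etfdh, the enzyme that hands electrons from the electron transfer flavoprotein to ubiquinone, had 139.8, 125, 130.2 and 89.3 CPM in mutant duodena and 175, 198, 171 and 168.1 CPM in control duodena. It fell, at -0.53 (SE 0.14, adjusted p = 0.0412), with no overlap, and kept the call only without M136 and without M168 among the 8 fits that each omit 1 mouse (adjusted p of up to 0.0986). Etfb, a subunit of the flavoprotein, had 32.2, 27.3, 30.4 and 24.3 CPM in mutant duodena and 37.5, 39.9, 36.2 and 35.1 CPM in control duodena, at -0.35 (SE 0.10, adjusted p = 0.0598). Its counts are uncertain, since 58.2% of its exon length overlaps Gm45233 on the same strand.

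None of the 5 peroxisomal genes passed, and all had fold changes below 0, though Acaa1a and Acaa1b were above 0 without M167 and M177. Acaa1a had 130.0, 96.8, 153 and 72.9 CPM in mutant duodena and 153, 157, 149 and 106 CPM in control duodena, at -0.29 (adjusted p = 0.389). Acaa1b had 82.2, 34.6, 53.9 and 15.4 CPM in mutant duodena and 58.9, 61.0, 52.5 and 50.7 CPM in control duodena, at -0.23 (adjusted p = 0.767). The mutants of Acaa1b lay on both sides of the closely spaced controls, with M136 above and M177 far below.

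Cyp4a10 had 29.1, 13.5, 16.9 and 4.60 CPM in mutant duodena and 84.0, 64.2, 85.5 and 64.4 CPM in control duodena. All 4 mutants lay far below the lowest control, and the log2 fold change was -2.19 (SE 0.50, adjusted p = 0.0449), a 4.56-fold fall. The call was lost in 6 of the 8 fits without 1 mouse, all but those without M136 and M177 (adjusted p of up to 0.108), and Cyp4a10 was the one member called in both tissues.

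Of the other PPARA targets, Acot2 had 18.7, 15.1, 12.6 and 12.3 CPM in mutant duodena and 22.9, 23.6, 21.5 and 18.7 CPM in control duodena, at -0.53 (SE 0.15, adjusted p = 0.0498). The highest mutant and the lowest control were nearly equal, and among the fits without 1 mouse the call was kept only without M136 (adjusted p of up to 0.125 in the rest). Acot1 had 20.4, 21.3, 7.42 and 9.94 CPM in mutant duodena and 24.7, 26.6, 19.2 and 31.5 CPM in control duodena, at -0.75 (adjusted p = 0.207). Vnn1 had 27.6, 15.8, 28.4 and 10.6 CPM in mutant duodena and 42.6, 50.7, 32.9 and 63.1 CPM in control duodena, without overlap, at -1.17 (SE 0.34, adjusted p = 0.07). The only members with fold changes above 0 were Pdk4, a kinase that shuts off pyruvate dehydrogenase, at 0.92 (adjusted p = 0.155), and Angptl4, an inhibitor of lipoprotein lipase, at 0.66 (adjusted p = 0.319), neither of which passed.

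The number of members lower in the mutant duodenum was 12 without M136 and 1 without C133, C151, C154 or M167. It was 2 without C134, without M177 or without M167 and M177, 3 without M168 (with 2 members then higher, Pdk4 and Angptl4), and 0 without C134 and C154, where 0.893% of all genes were called lower. Leaving the exocrine pancreas genes out of the table kept the count at 6. Shares of all genes in the other refits are not given, so these counts are not read as particular to the members. Scaling to the epithelial genes moved the median of all genes to 0.30, and 3 members were then lower. They were Cpt2, Cyp4a10 and Vnn1 (adjusted p = 0.0269, 0.0442 and 0.0367), while Cpt1a, Acads, Etfdh and Acot2 lost the call (0.293, 0.363, 0.211 and 0.352). The members' median was then -0.15 and 28 of the 33 were below 0, Acadm, Eci2 and Bdh1 having moved above it. Relative to the median of all genes, the members' median was -0.44 in the main scaling and -0.45 in the epithelial one. A scaling moves every gene by about the same amount, so these 2 values were bound to be nearly equal. They do not test the part of epithelial content.

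**Figure D2:**
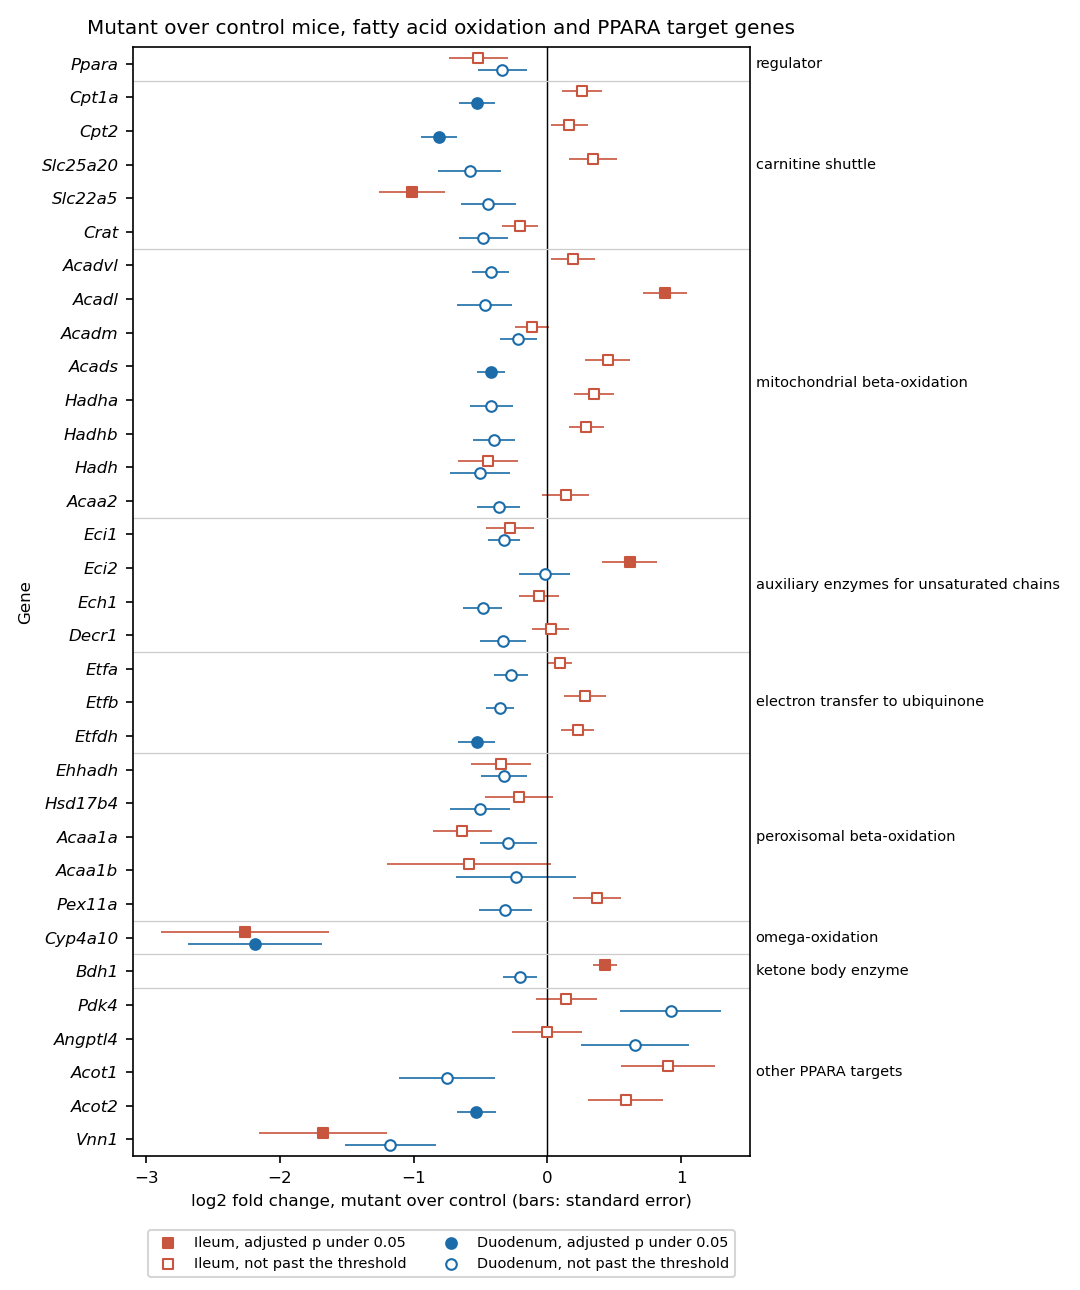
Points give the log2 fold change of mutant over control mice for each of the 33 members in the ileum (red squares) and the duodenum (blue circles), grouped by role, with standard errors as bars and filled symbols for an adjusted p under 0.05. Blue points lie left of 0 for 31 members, while red points fall on both sides, and Cyp4a10 and Vnn1 are far to the left in both tissues.

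**Figure D3:**
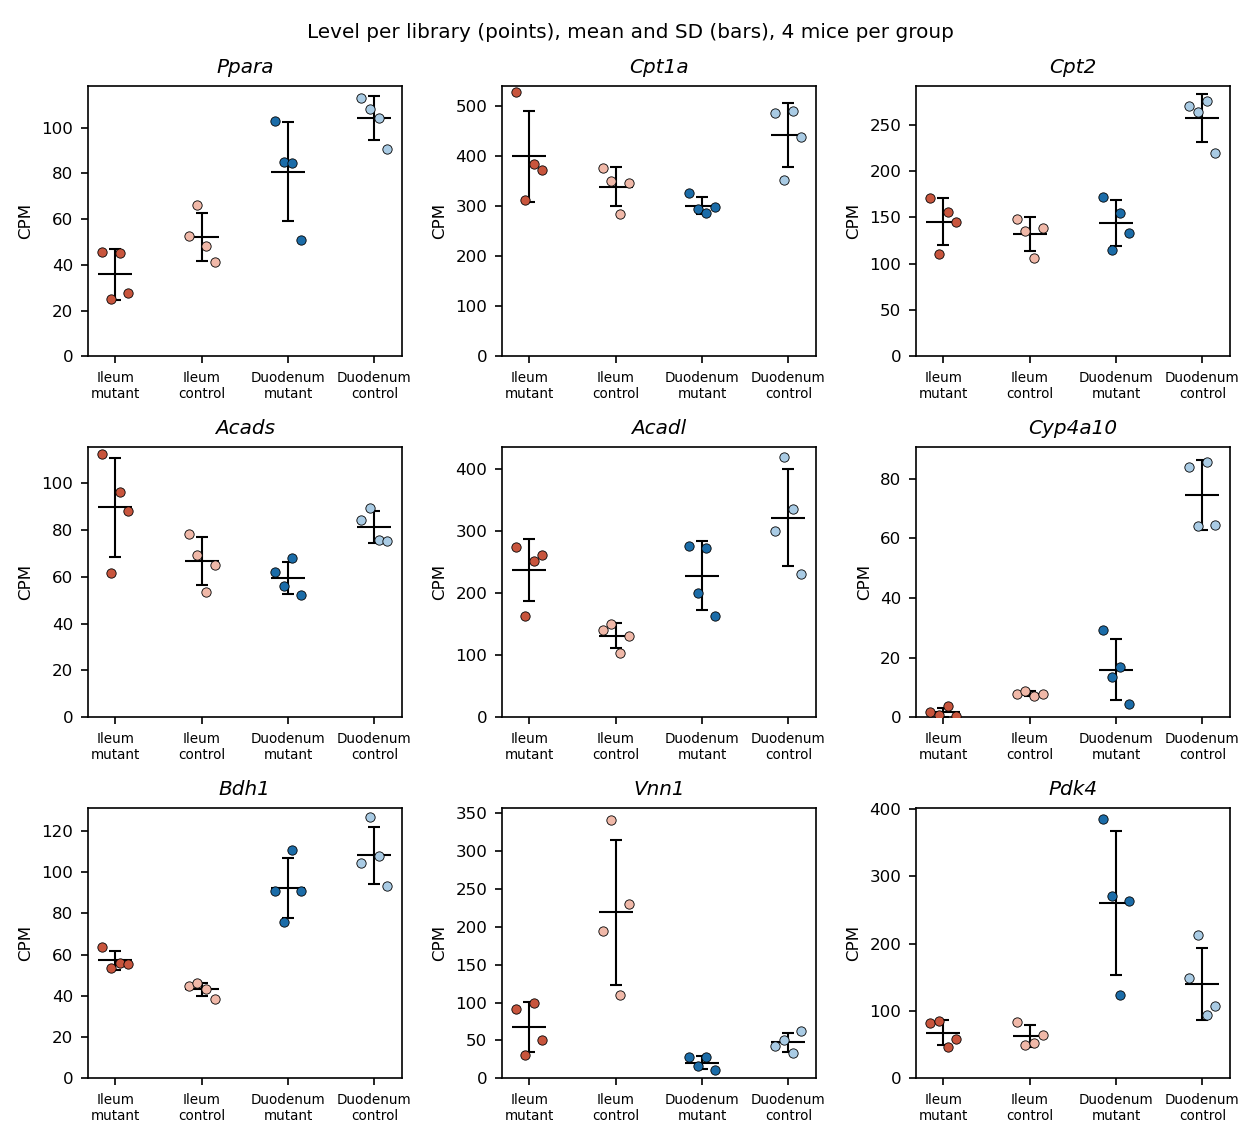
CPM of 9 members in each library (points), with the mean and SD of each group of 4 mice (bars), for mutant ileum, control ileum, mutant duodenum and control duodenum. Cpt2 is highest in the control duodenum alone, Acadl is lowest in the control ileum, and Cyp4a10 is lower in mutants within each tissue.

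The genotype effects of the 2 tissues were set against each other in a fit to all 16 libraries, without pairing by mouse. The effect in the ileum minus the effect in the duodenum was above 0 for 24 of the 33 members, against 46.3% of all genes, and its median was 0.41 against -0.06 for all genes. It passed as higher for 7 members and as lower for 0, against 4.86 and 4.13% of the 19289 genes tested. In single tissues 18 members were below 0 in the duodenum and above 0 in the ileum, and 13 were below 0 in both.

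The 7 members were Cpt2, Acadl, Acads, Etfdh and Bdh1, followed by Cpt1a and Hadha. For Cpt2 the log2 fold change was 0.16 in the ileum and -0.81 in the duodenum, a difference of 0.96 (SE 0.20, adjusted p = 0.0154). Acadl had the largest difference of the 7, with 0.88 in the ileum and -0.47 in the duodenum and a difference of 1.33 (SE 0.29, adjusted p = 0.0154). Both lost the call without C151 (adjusted p of 0.0676 and 0.0672) and without C134 and C154, and kept it in the other 16 alternatives.

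Acads differed by 0.86 (SE 0.21, adjusted p = 0.0246), with 0.45 in the ileum and -0.42 in the duodenum. Etfdh differed by 0.74 (SE 0.19, adjusted p = 0.0278), with 0.23 in the ileum and -0.53 in the duodenum. Bdh1 differed by 0.61 (SE 0.16, adjusted p = 0.0293), with 0.43 in the ileum and -0.20 in the duodenum. These 3 calls rested on the full set of mice, since each was lost in 5 or 6 of the 8 fits without 1 mouse. Cpt1a differed by 0.77 (adjusted p = 0.0343), a call lost in 6 of the 8, and Hadha by 0.75 (adjusted p = 0.0472), lost in 7.

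With the mouse as a block, 14 members passed as higher and 1 as lower, beside 10.8 and 10.0% of all genes. The 7 added were Slc25a20, Acadvl, Hadhb, Eci2, Etfb, Pex11a and Acot2, and the member that passed as lower was Slc22a5, at -0.54 (adjusted p = 0.0441). By role, all 8 mitochondrial beta-oxidation genes, all 4 auxiliary enzymes and all 3 electron transfer genes had differences above 0, with 3 of 8, 0 of 4 and 1 of 3 passing without the block. With epithelial scaling the differences of Hadh, Acadm and Eci1 were below 0. The peroxisomal genes lay on both sides, from -0.36 for Acaa1b to 0.67 for Pex11a, and none passed. For Ppara the difference was -0.19 (SE 0.31, adjusted p = 0.703), and for Cyp4a10 it was -0.09 (SE 0.80, adjusted p = 0.952). Scaling to the epithelial genes moved the median of all genes to -0.24 and left 3 calls, Cpt2, Acadl and Acads, and without C134 and C154 the count was 0, where 0.0698% of all genes were called higher.

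The second question is how the 2 regions of the gut differ within a genotype. Values here come from fits without pairing by mouse, and counts with the mouse as a block are given at the end. In control mice 30 members were lower in the ileum than in the duodenum, 1 was higher (Vnn1) and 2 did not pass (Slc22a5 and Slc25a20), where 30.3% of 18217 genes were called lower and 28.0% higher. Fold changes were below 0 for 31 members, against 50.2% of all genes, and the median log2 fold change, ileum over duodenum, was -1.05 against -0.00497 for all genes. Ilea lay wholly below duodena for 27 members, against 28.9% of all genes. In mutant mice 17 members were lower in the ileum and 3 were higher, where 18.2 and 12.9% of 17852 genes were called, and the median was -0.68 against -0.01. Within mice, 21 members were lower in the ileum in all 4 mutants, 29 in all 4 controls and 19 in all 8. The matching shares of all genes were not computed. The smooth muscle genes moved the other way, with 8 of 8 higher in the ileum in both genotypes, and their part was not tested. Scaling to epithelial genes gave 22 lower and 2 higher in mutants and 30 lower and 1 higher in controls. That scaling also moved the median of all genes, to -0.27 in mutants and -0.06 in controls.

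Ppara was lower in the ileum in both genotypes, at -1.17 (SE 0.26, adjusted p = 0.00692) in mutants and -0.98 (SE 0.13, adjusted p = 0.000109) in controls, and in all 8 mice. The steepest falls were those of Cyp4a10, at -3.29 (SE 0.84, adjusted p = 0.0228) in mutants and -3.21 (SE 0.13, adjusted p = 6.47e-08) in controls. Next among the falls came Acaa1b, at -2.49 (SE 0.69, adjusted p = 0.0322) in mutants and -2.13 (SE 0.38, adjusted p = 0.00258) in controls. Cyp4a10 kept its call in controls in all 14 alternatives, and in mutants both genes lost it without M136, without M167 and without the low count filter, as Acaa1b did without M167 and M177 (adjusted p of up to 0.106 for Cyp4a10 and 0.127 for Acaa1b).

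Ehhadh, the peroxisomal bifunctional enzyme, had 87.6, 53.1, 102 and 55.5 CPM in mutant ilea against 335, 268, 380.1 and 228 CPM in mutant duodena, at -2.02 (SE 0.24, adjusted p = 0.000154). In controls it had 108, 115, 74.7 and 88.7 CPM in the ileum against 434, 329, 428 and 355 CPM in the duodenum, at -1.99 (SE 0.15, adjusted p = 2.25e-06). The 2 genotypes thus had almost the same fold change. All 5 peroxisomal genes were lower in the control ileum and 4 in the mutant ileum, Hsd17b4 being the exception at -0.67 (adjusted p = 0.0644). Hsd17b4 did pass as lower in mutants in 6 of 14 alternatives, the mouse as a block among them (adjusted p = 0.0162).

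Acaa2, the thiolase that ends the mitochondrial cycle, had 149, 117, 185 and 130.5 CPM in mutant ilea against 407, 409, 403 and 267 CPM in mutant duodena, at -1.35 (SE 0.18, adjusted p = 0.000327). In controls it had 155, 166, 103 and 114 CPM in the ileum against 538, 460.2, 522 and 430.2 CPM in the duodenum, at -1.84 (SE 0.16, adjusted p = 4.96e-06). Hadh, which carries out the step before thiolysis on shorter chains, had 374, 220.3, 413 and 259 CPM in mutant ilea against 1112, 696, 941 and 544 CPM in mutant duodena, at -1.38 (SE 0.26, adjusted p = 0.00227). Neither gene had overlapping groups in these comparisons. Hadh in controls stood at -1.43 (SE 0.17, adjusted p = 4.32e-05).

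Crat, the carnitine acetyltransferase, had 77.4, 63.9, 96.0 and 79.4 CPM in mutant ilea against 272, 188, 258 and 145 CPM in mutant duodena, at -1.45 (SE 0.20, adjusted p = 0.000359). In controls it had 94.0, 111, 79.2 and 86.4 CPM in the ileum against 325, 337, 296 and 266 CPM in the duodenum, at -1.71 (SE 0.12, adjusted p = 1.4e-06). It differed by region far more than the other shuttle genes, whose log2 fold changes in controls ran from -0.95 for Cpt2 to 0.08 for Slc25a20. The auxiliary reductase Decr1 had 82.4, 103, 76.1 and 92.0 CPM in control ilea against 282, 266, 277 and 212 CPM in control duodena, at -1.54 (SE 0.12, adjusted p = 2.67e-06). Pdk4 had 82.0, 85.5, 46.0 and 58.1 CPM in mutant ilea against 385, 271, 123 and 263 CPM in mutant duodena, at -1.94 (SE 0.35, adjusted p = 0.00313), and was at -1.15 (SE 0.29, adjusted p = 0.0114) in controls. Its call was lost without M167 and M177 in mutants (adjusted p = 0.287) and without C134 and C154 in controls (adjusted p = 0.231).

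Vnn1 was the only member called higher in the ileum of controls and 1 of 3 called higher in that of mutants. It was 3.27-fold higher in the ileum of mutants, at 1.71 (SE 0.46, adjusted p = 0.0241), and 4.66-fold higher in the ileum of controls, at 2.22 (SE 0.37, adjusted p = 0.00168). The call in mutants was lost without M136, M168 or M177 and without the low count filter (adjusted p of up to 0.0724), and that in controls was kept in all 14 alternatives. Acot1 was lower in the control ileum at -1.80 (SE 0.20, adjusted p = 4.35e-05) and did not pass in mutants at -0.16 (SE 0.46, adjusted p = 0.83). Acaa1a was lower in both, at -1.44 (SE 0.25, adjusted p = 0.00184) in mutants and -1.08 (SE 0.19, adjusted p = 0.0012) in controls.

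Of the 30 members lower in the control ileum, 16 were also lower in the mutant ileum and 13 did not pass there, among them Cpt2, Acadl, Hadha, Hadhb and Etfdh. The remaining one, Acads, was lower in the control ileum at -0.27 (adjusted p = 0.0491) and higher in the mutant ileum at 0.59 (adjusted p = 0.0189), and the control call was lost without any 1 control mouse. The mutant call was lost without M136, M168 or M177 and with epithelial scaling (adjusted p of up to 0.107). Slc25a20 was at 0.99 (adjusted p = 0.0141) in mutants and 0.08 (adjusted p = 0.661) in controls, and Slc22a5 passed as lower in the ileum of mutants and not in that of controls, at -0.79 (adjusted p = 0.0444) against -0.21 (adjusted p = 0.346) in controls. The mutant call of Slc25a20 was lost without M168 or M177 (adjusted p of up to 0.062). That of Slc22a5 was kept in 8 of 14 alternatives, the fits without M136, M168 or M177 being among those that lost it (adjusted p of up to 0.138). With the mouse as a block, Acadvl, Hsd17b4 and Angptl4 also passed as lower in the ileum of mutants (adjusted p = 0.0276, 0.0162 and 0.00126). Cpt1a, like Acads, then passed in opposite directions. It was at 0.38 (adjusted p = 0.029) in mutants and -0.36 (adjusted p = 0.0243) in controls. The test of these contrasts between the genotypes is the difference of the genotype effects given above.

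**Figure D4:**
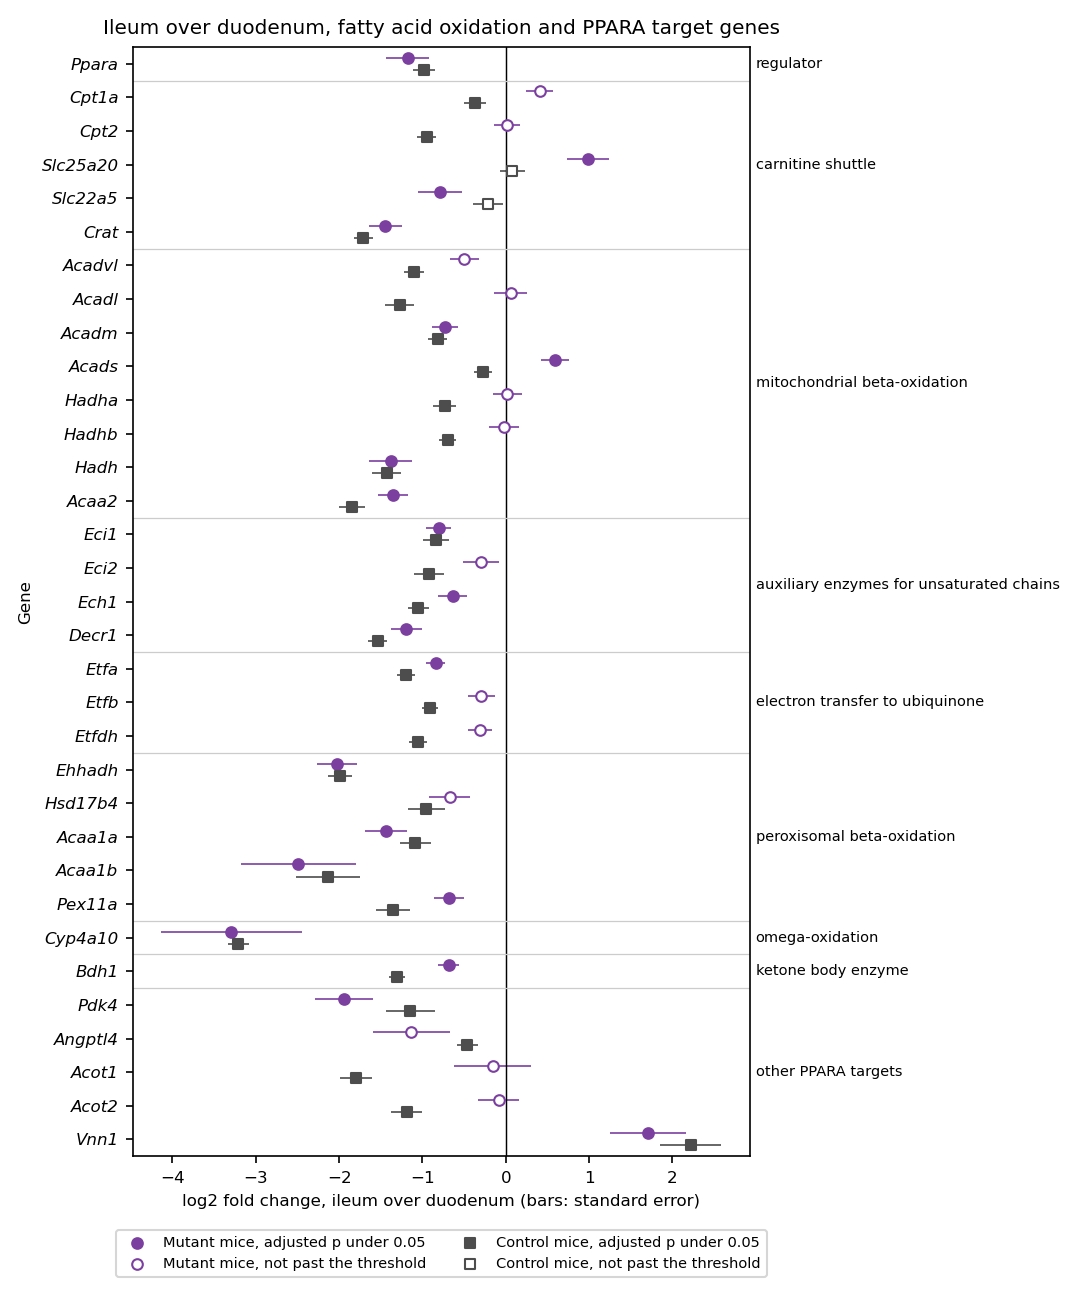
Points give the log2 fold change of ileum over duodenum for each of the 33 members in mutant mice (purple circles) and control mice (grey squares), grouped by role, with standard errors as bars and filled symbols for an adjusted p under 0.05. Control points lie left of 0 for 31 members. Mutant points of Cpt2, Acadl, Hadha, Hadhb, Acot1 and Acot2 sit near 0.

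Genes of related pathways outside the 34 were read from lists written with earlier results of these data known. Their counts stand beside shares over all genes of 19.0% higher and 14.6% lower in the mutant ileum, and 3.44% higher and 5.11% lower in the mutant duodenum. Of 31 other fatty acid oxidation enzymes, 6 rose and 3 fell in the mutant ileum (median 0.06), and 3 rose and 4 fell in the mutant duodenum (median -0.22). The acyl-CoA synthetase Acsl3 had 147 ± 35.6 CPM in mutant ilea and 54.8 ± 7.05 CPM in control ilea (SD, n = 4), a log2 fold change of 1.45 (adjusted p = 0.00019). The peroxisomal enzymes Phyh, of alpha-oxidation, and Acox3, of branched-chain oxidation, fell in both tissues. Log2 fold changes in the ileum were -0.81 (adjusted p = 0.00251) for Phyh and -0.38 (adjusted p = 0.0139) for Acox3, and in the duodenum -0.89 (adjusted p = 0.0197) for Phyh and -0.89 (adjusted p = 0.00677) for Acox3. Acsl1, another synthetase, rose in both, at 0.61 (adjusted p = 0.00129) in the ileum and 0.48 (adjusted p = 0.029) in the duodenum.

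Of 7 genes of ketone body synthesis and transport other than Bdh1, 5 rose in the mutant ileum (median 0.71) and none passed in the mutant duodenum, where 2 had an unadjusted p under 0.05 (median -0.09). The monocarboxylate carrier Slc16a1 had 145, 150.04, 136.1 and 175 CPM in mutant ilea and 97.3, 97.0, 90.4 and 93.4 CPM in control ilea, at 0.71 (SE 0.094, adjusted p = 0.000322). Slc16a6, of the same carrier family, was at 1.14 (adjusted p = 0.00118). The effect in the ileum minus that in the duodenum passed for 5 of the 7, Slc16a1 among them at 0.77.

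Among 12 partners and coregulators of PPAR receptors, Pparg rose in the mutant ileum, at 17.9, 23.7, 22.1 and 29.4 CPM against 13.7, 6.25, 10.4 and 6.74 CPM in control ilea and a log2 fold change of 1.36 (adjusted p = 0.00315). The coactivator Ppargc1a fell at -0.77 (adjusted p = 0.00712) and the partner receptor Rxra at -0.34 (adjusted p = 0.029). None of the 12 passed in the duodenum by edgeR, where 1 had an unadjusted p under 0.05. Of PPAR targets outside oxidation, 6 of 23 rose and 2 fell in the mutant ileum, and 0 of 22 rose and 2 fell in the mutant duodenum. The fatty acid carrier Cd36 fell in the ileum, at -0.87 (adjusted p = 0.00053), and the malic enzyme Me1 fell in the duodenum, at -1.51 (adjusted p = 0.0413).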

How the data were processed

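The authors deposited 1 table of unnormalised read counts, whole numbers by Ensembl identifier (55359 rows, 16 libraries), which was used unchanged. Per the labels' protocols, ribosomal RNA was depleted and the libraries keep strand. The submitters' processing notes name HTSeq 0.6.1p1, STAR 2.5.3a, Bowtie2 2.2.8 and cutadapt 1.10, and mm39 as the genome. Which annotation release and strand option went into counting is not given in the sources used here. Names and exon lengths came from GENCODE M21, an earlier assembly, which named 52083 identifiers, and none of its coordinates were set against the authors' files.

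Groups follow the genotype and tissue in the labels. Each comparison was fitted over all genes that pass filterByExpr with edgeR 4.0.16 (limma 3.58.1, R 4.3.3), using trimmed mean of M values scaling and the robust quasi-likelihood F test, with Benjamini-Hochberg adjustment across every gene tested. Genotype was tested within each tissue, tissue within each genotype, and the difference of the genotype effects in all 16 libraries. The threshold was an adjusted p of 0.05, and SE is the log2 fold change divided by the square root of F. Totals of 40.9 to 67.2 M counts put 3 counts in a library below any level of the 33 members compared here. No libraries were identical. The labels give no litters or batches, so p-values measure the spread between these mice. The main fits across tissues took the 2 libraries of a mouse as independent, which they are not if the numbers name mice.

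The same number in both tissues was read as the same mouse. Residuals of the 2 libraries of a mouse correlated at r of 0.221 to 0.481 over 19289 genes, each above 0.1, and 7 of 8 mice matched best with their own ileum. The mouse as a block was therefore run for comparisons across tissues, and genotype within a tissue holds different mice.

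The members, the role groups and the other gene lists were chosen with earlier results of these data known. Values per library are given for Ppara, for at most 12 members per genotype comparison, those of smallest p, for members with the largest called differences per region comparison and for near-identical pairs. For the difference of genotype effects the rule names 5 members, and Cpt1a and Hadha were added after their values were seen, because they passed. From other lists up to 4 genes with the smallest p were named, except some that are not reported here.

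Alternatives were limma-voom, the Wald test of DESeq2 1.42.0, its size factors within edgeR, omission of the low count filter, a minimum of 1 CPM in 4 libraries, omission of exocrine pancreas genes, all 16 libraries in 1 fit, the block, each mouse left out, and C134 with C154 or M167 with M177 left out. Scaling to Vil1, Epcam, Cdh1 and Cdx2 was added after seeing the data. The fits were tested on simulated counts first. Near-identical sequence was measured as the share of 50-base stretches of a gene's transcripts found in another gene.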

Additional observations from a re-analysis of the deposited data

Results flagged for a closer look

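Within the groups of 4 mice, the gap between 1 extreme library and the next was compared with the range of its group by Dixon's ratio, for each of the 33 members in each group. In 3 of 132 such groups the ratio passed the critical value for 4 samples, where chance passes about 1 in 20. Acaa2 had 267 CPM in the mutant duodenum of M177, where the other mutants had 403 to 409 CPM (ratio 0.959). Acaa1a had 106 CPM in the control duodenum of C154, where the other controls had 149 to 157 CPM (ratio 0.845). Pex11a, a gene of peroxisome division, had 20.7 CPM in the mutant ileum of M167, where the other mutants had 32.7 to 34.8 CPM (ratio 0.848). Each of these 3 libraries was also the one in which most members of its group were lowest.

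For 7 members the test of the difference between tissues passed, the genotype effect in the ileum being above that in the duodenum. On the log2 scale the difference was 0.77 for Cpt1a, 0.96 for Cpt2, 1.33 for Acadl, 0.86 for Acads, 0.75 for Hadha, 0.74 for Etfdh and 0.61 for Bdh1.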

How the results depend on the processing

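Over the 165 results of single members (33 in each of the 5 comparisons), 2362 values under an alternative kept direction and side of the threshold, 102 gained the call, 170 lost it and 72 changed sign, none of these 72 in a result that had passed. Of the values printed for single members, the signs of these changed. In the duodenum Bdh1 was at 0.049 with epithelial scaling and Acaa1a at 0.019 without M167 and M177, and Acaa1b was at 0.31 without them and -0.66 to 0.055 without 1 mouse. In the ileum Acaa1b was at 0.043 without M167 and M177. For the difference of genotype effects, Acaa1b was at 0.064 without C134 and C154 and -0.94 to 0.098 without 1 mouse. Cyp4a10 was there at 0.17 without C134 and C154, 0.16 without M167 and M177 and -0.83 to 0.31 without 1 mouse. Between regions in mutants, Cpt2 was at -0.24 with epithelial scaling and -0.018 to 0.035 without 1 mouse, and Acot1 at 0.43 without M167 and M177 and -0.47 to 0.30 without 1 mouse. Counts of members called moved by over 1.5 times as follows, and the cause was not tested unless fewer mice made the fit. These counts stand without the shares of all genes in the same fits. Higher in the mutant ileum (main 3) became 5 with the DESeq2 Wald test, 10 with epithelial scaling, 11 without M167 and M177, and 2 to 11 without 1 mouse. Lower there (main 3) became 5 with DESeq2, 0 without the low count filter, 0 without C134 and C154, 1 without M167 and M177, and 1 to 4 without 1 mouse. Higher in the mutant duodenum (main 0) became 1 with DESeq2 and 0 to 2 without 1 mouse. Lower there (main 6) became 11 with DESeq2, 3 with epithelial scaling, 0 without C134 and C154, 2 without M167 and M177, and 1 to 12 without 1 mouse. A higher ileal than duodenal genotype effect (main 7) became 12 with DESeq2, 3 with epithelial scaling, 14 with the replicate block, 0 without C134 and C154, and 0 to 11 without 1 mouse, and a lower one (main 0) became 1 with the block. Higher in the ileum of mutants (main 3) became 0 to 3 without 1 mouse. With the block, 20 members were lower and 4 higher in the ileum of mutants (17 and 3 without it) and 30 lower and 1 higher in that of controls, as without it. Epithelial scaling moved the median of all genes to 0.30 in the duodenum, 0.04 in the ileum, -0.24 for the difference of genotype effects, -0.27 between regions in mutants and -0.06 in controls. With 4 mice a group, small changes of single members in the duodenum cannot be separated from the spread between mice, and fits without a pair of mice leave 2 on one side.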
